A study of Homo sapiens with 21 samples.

Results

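The account covers 33 genes of homologous recombination, the Fanconi anaemia pathway, the DNA damage checkpoint and mismatch repair. The genes were followed across NLF neuroblastoma cells with or without a guide against YAP1 and with or without the MEK inhibitor trametinib. They were taken by gene symbol from a table of 57820 genes. The rule uses no measured value, but the list was drawn up with earlier results of these data known. All 33 reached an FPKM (fragments per kilobase of transcript, scaled to library size) of 1 or more in 3 or more libraries and are among the 16153 genes tested. BRCA2 was the single gene that fell under 1 FPKM in some libraries, and it reached 1 FPKM in 17 of the 21.

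Homologous recombination repairs a double-strand break by copying the sister chromatid. The MRE11-RAD50-NBN complex with RBBP8 (CtIP) starts the trimming of the broken ends, EXO1 and other nucleases lengthen it, and BRCA1 with BARD1, PALB2 and BRCA2 prepare the exposed strand for strand exchange. The Fanconi core complex, with the E2 enzyme UBE2T, attaches ubiquitin to FANCD2 and FANCI at DNA crosslinks. ATM and ATR sense damage and stalled forks and act through the kinases CHEK2 and CHEK1, and MSH6 and PMS2 belong to the mismatch repair complexes. Many of these genes are transcribed most in S phase and are known targets of E2F factors, and MYCN-driven neuroblastoma is studied for its replication stress and its use of the ATR-CHEK1 pathway.

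NLF is an established human neuroblastoma cell line. The series holds 21 libraries of total RNA depleted of ribosomal RNA, in 7 groups of 3. The groups were YAPKO2 with trametinib, YAPKO2 with DMSO, YAPKO1 with trametinib, YAPKO1 with DMSO, sgCON with trametinib, sgCON with DMSO, and the unedited parental cells. YAPKO1 and YAPKO2 are NLF lines with Cas9 and a guide against YAP1, 1 guide each, and sgCON is NLF with Cas9 and a scrambled guide. Trametinib was given at 20 nM for 72 h, starting 24 h after plating, and the controls received its solvent DMSO (0.01% in the sample labels, 0.1% in the series text). Each knockout genotype is represented by 1 line, so the guide and the line cannot be told apart, and nothing in the labels says that the 3 libraries of a group are separate cultures, so the p-values may measure technical spread only. The guides are shown because they define the lines:

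sgCON guide: gcactcacatcgctacatca
YAPKO1 guide: cgccgtcatgaaccccaaga
YAPKO2 guide: gtgcacgatctgatgcccgg

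The YAPKO1 guide matched 7 of 11 annotated YAP1 transcripts on the sense strand next to a PAM, the YAPKO2 guide matched 7 of 11 on the antisense strand, and the scrambled guide matched 0 of them. YAP1, the coactivator that the Hippo pathway restrains, stood at 3.22, 2.73 and 2.85 FPKM in YAPKO2 with DMSO and 13.4, 13.1 and 9.2 FPKM in YAPKO1 with DMSO, against 25.3, 24.6 and 28.2 FPKM in sgCON with DMSO. With trametinib it was 2.77, 1.18 and 3.75 FPKM in YAPKO2 and 12.7, 12 and 10.3 FPKM in YAPKO1, against 23, 24.9 and 23 FPKM in sgCON. Parental cells had 29.9, 33.3 and 33.9 FPKM. All 12 knockout libraries lay below all 9 others, and the log2 change ± SE in DMSO was -2.95 ± 0.23 in YAPKO2 (adjusted p = 5.16e-08) and -1.12 ± 0.23 in YAPKO1 (adjusted p = 0.00368). These and all further adjusted p-values come from limma, with Benjamini-Hochberg adjustment over all genes tested, and a gene is said to rise, fall, pass or be called at an adjusted p under 0.05.

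Each library had 13695 to 14528 genes at 1 FPKM or more, and the number of reads behind a value is unknown because the files hold FPKM. The neuroblastoma markers HAND2 (61.8 to 102 FPKM) and ISL1 (21.8 to 36 FPKM) were present throughout, while the noradrenaline enzyme genes TH and DBH were at 0 in 11 libraries and in 1 library. Of 4 epithelial markers CDH1 was listed at 0 in all 21 libraries and EPCAM in 12, while KRT8 and KRT18 were above 0 in all. Their summed level was 0.603 to 3.9 FPKM in the knockout lines, against 14.7 to 18 FPKM in sgCON and 3.68 to 4.6 FPKM in parental cells. Of the 3 blood and endothelial markers in the table, PTPRC and CDH5 were each at 0 in 12 libraries and CD68 was above 0 in all. Their sum was 0.412 to 1.34 FPKM in the knockout lines, 0.169 to 0.926 FPKM in sgCON with trametinib, 2.04 to 2.5 FPKM in sgCON with DMSO and 9.88 to 13.3 FPKM in parental cells. All 5 fibroblast markers were above 0 in every library. Their summed level was 165 to 312 FPKM in YAPKO2 with trametinib and 361 to 598 in YAPKO2 with DMSO. It was 85.05 to 170.4 FPKM in YAPKO1 with trametinib and 129 to 411 in YAPKO1 with DMSO. In sgCON it was 340.2 to 463 FPKM with trametinib and 340.4 to 436 with DMSO, and in parental cells 688 to 753 FPKM. The part of these markers in the results was not tested. In such bulk samples, fewer cells of a kind and less RNA per cell cannot be told apart.

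The libraries also differed in a trend of their values with the GC content of the transcript, measured as the log2 deviation of GC-rich minus GC-poor genes. The trend was 0.702, 1.34 and -0.251 in the 3 YAPKO2 libraries with trametinib, 0.089, 0.622 and 0.171 in YAPKO2 with DMSO, 0.381, -0.075 and 0.523 in YAPKO1 with trametinib and -0.404, -0.218 and 0.678 in YAPKO1 with DMSO. It lay between -0.28 and -0.146 in sgCON with trametinib, between -0.475 and -0.375 in sgCON with DMSO and between -0.602 and -0.551 in parental cells. The 33 genes are GC-poor, with a median transcript GC content of 41.4% against 48.1% for the protein-coding genes tested, and 18 of them fall in the lowest quartile of tested genes (41.7% GC or less) and 2 in the highest (56.6% or more). The number of the 33 genes called in each comparison is therefore given also after a correction that removes a smooth GC trend from each library. Other counts below are mostly given without this correction.

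**Figure D1:**
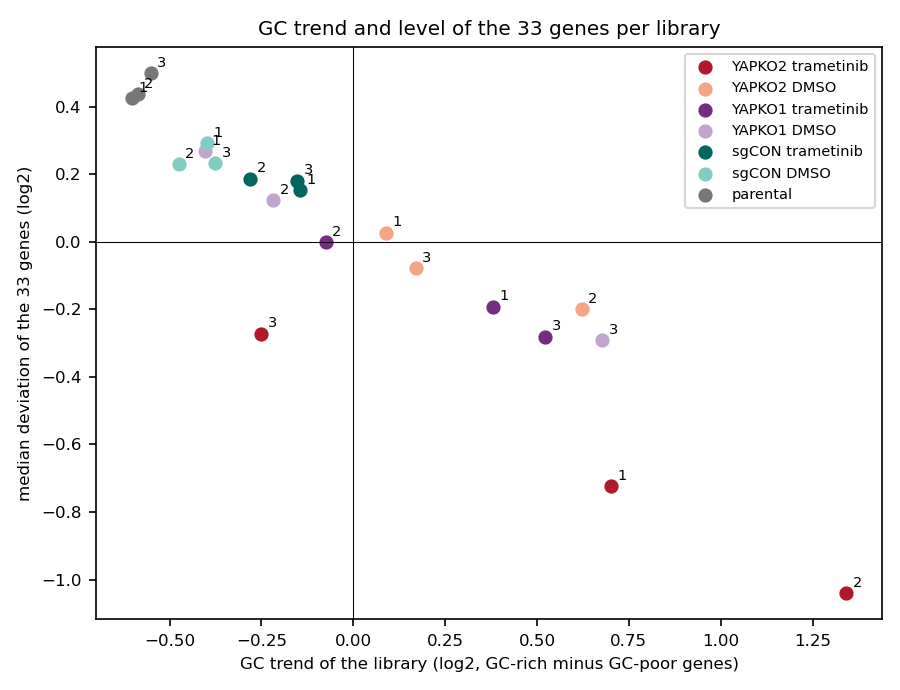
GC trend of each library (x axis, log2 deviation of GC-rich minus GC-poor genes) against the median deviation of the 33 genes from their means over 21 libraries (y axis, log2). Points are libraries, coloured by group and numbered by replicate; the 3 libraries with the highest trends (1.34 and 0.702 in YAPKO2 with trametinib, 0.678 in YAPKO1 with DMSO) hold medians of -1.04, -0.72 and -0.29, and the parental libraries stand at the other end.

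Trametinib lowered a subset of these genes in YAPKO2, few in YAPKO1 and none detectably in sgCON. In YAPKO2, 11 of the 33 genes fell and 0 rose, where 11.5% of all genes tested fell and 8.56% rose; the median log2 change of the 33 was -0.44, against -0.01 for all genes tested. In YAPKO1, 3 fell and 0 rose (3.87% of all genes fell and 3.96% rose), with a median of -0.20. In sgCON 0 of 33 passed with limma in either direction (2.93% of all genes fell and 2.27% rose). The sgCON median was -0.01, and 2 of the 33 had an unadjusted p under 0.05. The share of all genes tested at that unadjusted level was not counted. After the GC correction the counts were 14 lower and 2 higher in YAPKO2 (14.9% and 13.2% of all genes) and 1 lower and 0 higher in YAPKO1 (7.02% and 6.89%). In sgCON they were 0 lower and 2 higher (5.03% and 4.67%), namely BRIP1 at 0.44 ± 0.09 (adjusted p = 0.00495) and PMS2 at 0.24 ± 0.07 (adjusted p = 0.0281).

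**Figure D2:**
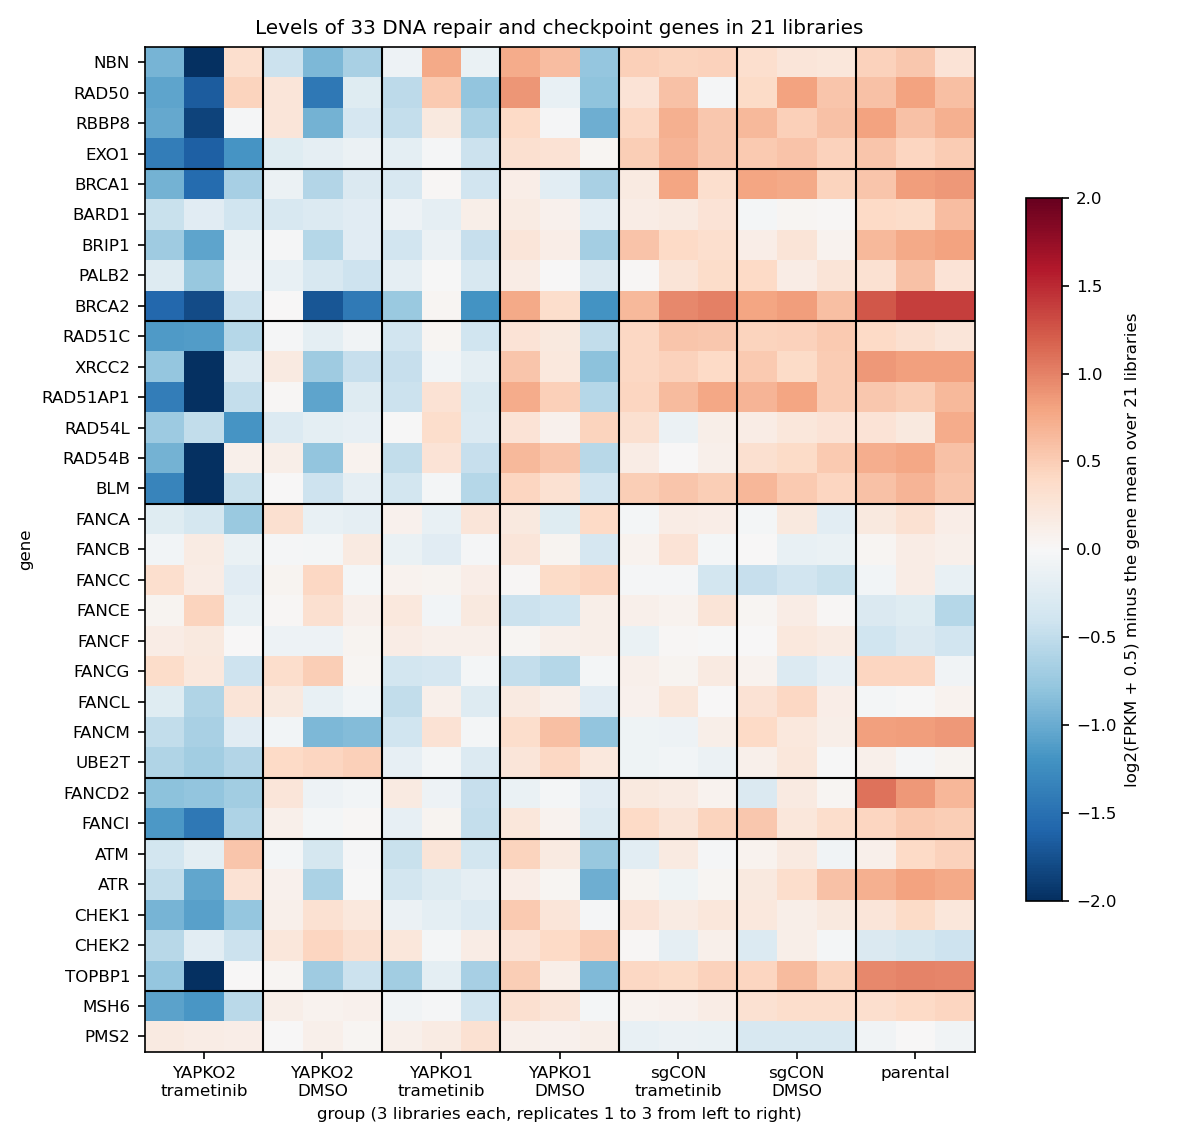
Heat map of the 33 genes (rows, grouped by role and separated by lines) in 21 libraries (columns, 3 per group). Colour is log2(FPKM + 0.5) minus the gene's mean over all libraries; EXO1, CHEK1, FANCI, MSH6 and UBE2T are low in all 3 YAPKO2 libraries with trametinib, while NBN, RAD50, ATM and ATR are low in some libraries of that group and not in others.

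The promoter windows of 3 genes that fell in YAPKO2 and of FANCC, which was higher in both knockout lines, are shown because they hold letters of the E2F type. These are RefSeq windows of 300 bases that reach from upstream of a transcription start to just past it (GRCh38.p14), written 5′ to 3′ on the strand of the gene, with matches to TTTCGCGC, TTTGGCGC or TTTCCCGC on either strand in capitals. The EXO1 window lies at chr1:241847954-241848253 (plus strand) and that of MSH6 at chr2:47782895-47783194 (plus strand). The FANCD2 window lies at chr3:10026187-10026486 (plus strand) and that of FANCC at chr9:95317660-95317959 (minus strand).

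EXO1: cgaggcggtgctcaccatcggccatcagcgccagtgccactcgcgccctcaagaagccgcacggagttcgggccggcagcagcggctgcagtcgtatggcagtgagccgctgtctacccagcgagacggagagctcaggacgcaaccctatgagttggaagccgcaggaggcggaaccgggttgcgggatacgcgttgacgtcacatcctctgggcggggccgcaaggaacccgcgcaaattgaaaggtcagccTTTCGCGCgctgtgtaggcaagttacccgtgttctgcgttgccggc
MSH6: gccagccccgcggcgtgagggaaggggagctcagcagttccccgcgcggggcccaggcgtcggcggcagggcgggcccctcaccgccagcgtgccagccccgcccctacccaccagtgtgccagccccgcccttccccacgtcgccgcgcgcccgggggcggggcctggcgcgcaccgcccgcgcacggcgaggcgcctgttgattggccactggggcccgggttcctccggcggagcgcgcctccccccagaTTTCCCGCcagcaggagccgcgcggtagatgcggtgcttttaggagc
FANCD2: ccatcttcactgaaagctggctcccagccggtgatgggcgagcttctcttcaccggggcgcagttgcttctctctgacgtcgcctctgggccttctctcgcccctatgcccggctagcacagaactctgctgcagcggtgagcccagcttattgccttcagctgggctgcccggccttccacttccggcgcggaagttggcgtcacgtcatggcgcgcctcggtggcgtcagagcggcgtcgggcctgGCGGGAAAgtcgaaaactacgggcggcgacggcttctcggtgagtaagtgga
FANCC: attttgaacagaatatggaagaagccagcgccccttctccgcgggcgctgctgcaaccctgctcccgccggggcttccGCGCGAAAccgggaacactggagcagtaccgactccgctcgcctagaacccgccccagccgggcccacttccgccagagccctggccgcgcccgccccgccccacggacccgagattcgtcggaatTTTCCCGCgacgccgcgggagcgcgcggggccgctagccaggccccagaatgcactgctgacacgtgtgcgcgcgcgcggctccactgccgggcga

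A window was found for 30 of the 33 genes, and 6 of these 30 held E2F-type letters in at least 1 window (EXO1, MSH6, FANCD2, TOPBP1, XRCC2 and FANCC), against 3.30% of the 27305 genes with a window. The NF-Y-type letters CCAAT stood in windows of 15 of the 30, against 39.7% of genes, and the CHR-type letters TTTGAA in those of 4 (UBE2T, FANCC, ATM and BRIP1), against 18.2%. BLM, BRCA1, CHEK1, CHEK2, RAD51C, RAD54L and UBE2T also fell with trametinib in YAPKO2, and their windows held no E2F-type letters. EXO1, MSH6 and FANCC have other windows, not shown, without such letters. A match describes the letters of the window, and binding was not measured.

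Among the genes of break sensing and resection, EXO1 fell in both knockout lines, and NBN, RAD50 and RBBP8 did not pass with trametinib against DMSO in any line. EXO1, the 5′ to 3′ exonuclease of long-range resection and mismatch repair, stood at 15.8, 13.2 and 18.3 FPKM in YAPKO2 with trametinib and 35.4, 36.9 and 38.7 with DMSO. In YAPKO1 it was 36.7, 41.3 and 30.9 with trametinib and 52.8, 51.3 and 42.9 with DMSO, and in sgCON 59, 67.3 and 61.4 with trametinib and 60.6, 62.4 and 57.7 with DMSO. The trametinib libraries lay below all DMSO libraries in both knockout lines, and the 2 sets overlapped in sgCON. The log2 changes were -1.21 ± 0.12 in YAPKO2 (adjusted p = 2.01e-06), -0.43 ± 0.12 in YAPKO1 (adjusted p = 0.0327) and 0.05 ± 0.12 in sgCON (adjusted p = 0.881). The YAPKO1 call of EXO1 was lost without YAPKO1 DMSO library 1 or 2 (adjusted p = 0.125 and 0.122) and without trametinib library 1 or 3 (adjusted p = 0.0769 and 0.173). Over all its alternatives the adjusted p reached 0.232. Parental cells had 61.6, 56.7 and 59.97 FPKM.

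NBN, the subunit of the MRE11 complex that recruits ATM, had 11, 4.86 and 27.1 FPKM in YAPKO2 with trametinib and 15.7, 11.2 and 13.4 FPKM in YAPKO2 with DMSO. Trametinib library 3 was higher than every DMSO library of that line and trametinib library 2 was lower than all of them, and the change was -0.21 ± 0.44 (adjusted p = 0.795). RAD50, the ATPase of the same complex, had 2.46, 1.46 and 7.96 FPKM with trametinib and 6.83, 1.78 and 4.71 FPKM with DMSO in YAPKO2, and RBBP8 had 7.94, 4.24 and 16.4 FPKM with trametinib and 19.8, 8.37 and 13 with DMSO. For both genes the third trametinib library was again the highest of its group and the second the lowest, and neither passed in YAPKO2 (adjusted p = 0.766 and 0.303) or in the other lines. Those are the libraries with the lowest (-0.251) and the highest (1.34) GC trend of the group. The part of this trend in the values of these genes was not tested.

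**Figure D3:**
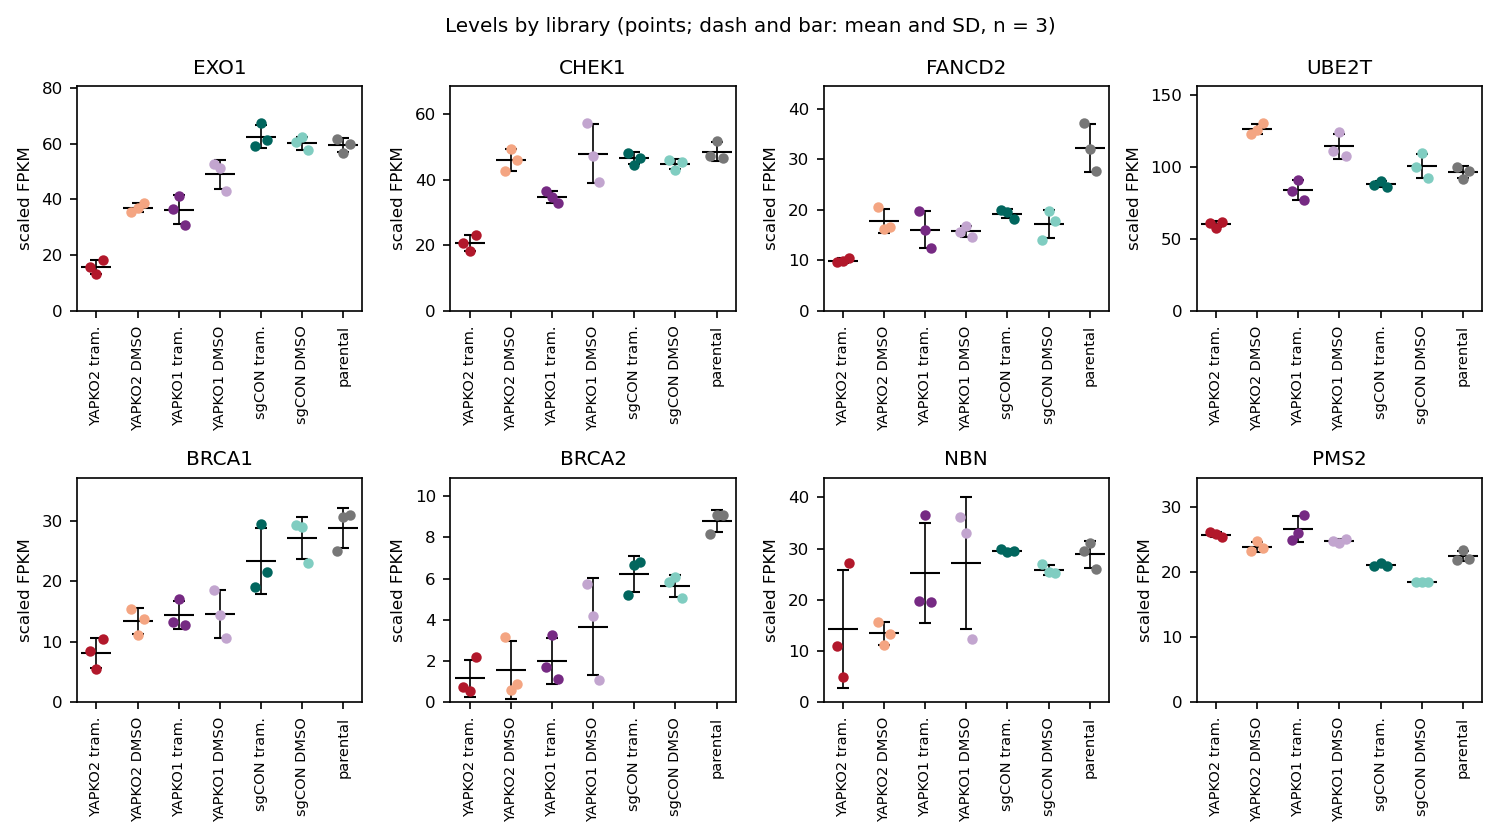
Scaled FPKM of EXO1, CHEK1, FANCD2, UBE2T, BRCA1, BRCA2, NBN and PMS2 (y axis, linear, from 0) in the 7 groups (x axis). Points are libraries, the dash is the mean and the bar the SD (n = 3); EXO1, CHEK1, FANCD2 and UBE2T are low in all 3 YAPKO2 libraries with trametinib, whereas NBN spreads from 4.86 to 27.1 FPKM in that group.

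In the BRCA1-BRCA2 group, 1 of 5 genes fell with trametinib in YAPKO2 and 0 in the other lines. BRCA1, the ubiquitin ligase that promotes resection and links to PALB2, had 8.51, 5.49 and 10.5 FPKM in YAPKO2 with trametinib and 15.4, 11.1 and 13.8 with DMSO, with no overlap. It changed by -0.72 ± 0.23 there (adjusted p = 0.0344), by 0.01 ± 0.23 in YAPKO1 (adjusted p = 0.996) and by -0.23 ± 0.23 in sgCON (adjusted p = 0.677). This call did not hold without the second YAPKO2 trametinib library (-0.47, adjusted p = 0.163) or without the first YAPKO2 DMSO library (-0.61, adjusted p = 0.126). It was also lost without trametinib library 1 or DMSO library 3 of that line (adjusted p = 0.0598 and 0.0935), and over all its alternatives the adjusted p ran from 0.00047 to 0.183. BRCA2, a mediator of strand exchange, was at 0.738, 0.564 and 2.2 FPKM with trametinib and 3.17, 0.615 and 0.867 with DMSO in YAPKO2, and did not pass (-0.22 ± 0.48, adjusted p = 0.809). BARD1, the partner of BRCA1 (19.7 to 23 FPKM with trametinib and 21.4 to 22.9 with DMSO in YAPKO2), the helicase gene BRIP1 (4.58 to 9.20 with trametinib and 6.65 to 9.93 with DMSO) and PALB2 (4.20 to 6.94 with trametinib and 5.50 to 6.69 with DMSO) had overlapping values and did not pass.

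Of the 6 genes for strand exchange and the dissolution of joint molecules, 3 fell in YAPKO2, and none passed in YAPKO1 or sgCON. RAD51C, which acts in strand exchange, had 29.5, 29.9 and 43.8 FPKM with trametinib and 64.2, 57.1 and 61.9 with DMSO in YAPKO2, with no overlap (-0.84 ± 0.18, adjusted p = 0.00257). BLM, the helicase that dissolves double Holliday junctions, had 5.99, 3.55 and 11.4 FPKM with trametinib and 15.8, 11.6 and 13.9 with DMSO (-1.06 ± 0.28, adjusted p = 0.0118). RAD54L, a motor protein that aids strand invasion, had 3.89, 4.67 and 2.7 FPKM with trametinib and 5.47, 5.81 and 5.93 with DMSO (-0.58 ± 0.19, adjusted p = 0.0404). For these 3 genes every trametinib library lay below every DMSO library. The BLM call was lost without the second trametinib library (-0.69, adjusted p = 0.0592) and without the first DMSO library (-0.96, adjusted p = 0.0505). It held in 18 of 21 alternatives, over which the adjusted p reached 0.189. The RAD54L call was lost without the first trametinib library (adjusted p = 0.0711), without the third (-0.39, adjusted p = 0.136) and without each of the 3 DMSO libraries (adjusted p = 0.0738, 0.0916 and 0.108). RAD51AP1, which stimulates strand invasion, had one of the largest changes (-1.03 ± 0.41) but values of 9.72, 4.12 and 18.8 FPKM with trametinib and 26.6, 12.3 and 21.9 with DMSO, which overlapped (adjusted p = 0.0839). XRCC2, which acts in strand exchange (-0.80 ± 0.40, adjusted p = 0.173), and RAD54B, related to RAD54L (-0.77 ± 0.41, adjusted p = 0.212), did not pass either. With the GC correction RAD51AP1 (-0.87 ± 0.18, adjusted p = 0.00116) and RAD54B (-0.60 ± 0.21, adjusted p = 0.0388) passed.

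Most Fanconi core genes passed in no line. Of the 9 core and E2 genes, 1 fell with trametinib in YAPKO2 (UBE2T) and the median change was -0.06. UBE2T, the E2 enzyme of the core complex, had 61.4, 57.8 and 61.9 FPKM in YAPKO2 with trametinib and 123, 126 and 130.5 with DMSO (-1.06 ± 0.08, adjusted p = 1.56e-07). In YAPKO1 it had 83.4, 91.3 and 77.3 FPKM with trametinib and 111, 125 and 108 with DMSO (-0.45 ± 0.08, adjusted p = 0.00266), and in sgCON 87.7, 90.3 and 86.4 FPKM with trametinib and 100.2, 109.8 and 92.7 with DMSO (-0.19 ± 0.08, adjusted p = 0.239). The trametinib libraries were below the DMSO libraries in all 3 lines, and the YAPKO1 call was lost with the GC correction (-0.30 ± 0.15, adjusted p = 0.199). That call held in 18 of 21 alternatives, over which the adjusted p reached 0.217. FANCA, a subunit of the core, had 10.5, 9.79 and 7.33 FPKM with trametinib and 15.8, 11.3 and 11 with DMSO in YAPKO2, all trametinib values below all DMSO values (-0.44 ± 0.18, adjusted p = 0.0918). With the GC correction it passed (-0.52 ± 0.15, adjusted p = 0.0162). FANCB, FANCC, FANCE, FANCF, FANCG, FANCL and FANCM, further core subunits, of which FANCL is the ubiquitin ligase and FANCM a DNA translocase, changed by between -0.24 (FANCG) and 0.16 (FANCF) in YAPKO2 and did not pass in any line. FANCF passed as higher in YAPKO2 with the GC correction (0.27 ± 0.09, adjusted p = 0.0277), as did PMS2 (0.20 ± 0.07, adjusted p = 0.028).

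Both genes of the FANCD2-FANCI pair fell in YAPKO2. FANCD2 had 9.57, 9.77 and 10.5 FPKM with trametinib and 20.5, 16.1 and 16.6 with DMSO in YAPKO2 (-0.80 ± 0.15, adjusted p = 0.00137). In YAPKO1 it had 19.7, 16 and 12.5 FPKM with trametinib and 15.7, 16.8 and 14.7 with DMSO and in sgCON 19.96, 19.5 and 18.2 FPKM with trametinib and 14.1, 19.7 and 17.8 with DMSO, overlapping in both lines (0.01 ± 0.15 and 0.17 ± 0.15, adjusted p = 0.991 and 0.649). FANCI, its partner, had 36, 29.3 and 51.7 FPKM with trametinib and 85.7, 78 and 80.9 with DMSO in YAPKO2 (-1.09 ± 0.17, adjusted p = 0.000227), and its changes in YAPKO1 (-0.20 ± 0.17) and sgCON (-0.01 ± 0.17) did not pass. In YAPKO2 the trametinib values of both genes lay wholly below the DMSO values. FANCD2 has near-identical copies in the genome, so its reads may have been divided among them.

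In the checkpoint group the effector kinases fell and the apical kinases did not pass. CHEK1, the kinase that ATR activates, had 20.6, 18.4 and 23.1 FPKM in YAPKO2 with trametinib and 42.8, 49.3 and 46 with DMSO (-1.14 ± 0.11, adjusted p = 2.51e-06). In YAPKO1 it had 36.6, 34.7 and 32.9 FPKM with trametinib and 57.2, 47.4 and 39.4 with DMSO (-0.45 ± 0.11, adjusted p = 0.0228), and in sgCON 48.3, 44.7 and 46.8 FPKM with trametinib and 46, 43.1 and 45.4 with DMSO (0.05 ± 0.11, adjusted p = 0.872). CHEK1 values did not overlap in either knockout line and overlapped in sgCON. The YAPKO1 call of CHEK1 was lost with the GC correction (-0.32 ± 0.11, adjusted p = 0.0536). It was also lost without YAPKO1 DMSO library 1 or 2 (adjusted p = 0.118 and 0.0683) and without trametinib library 2 or 3 (adjusted p = 0.0607 and 0.0932). This YAPKO1 call held in 11 of 21 alternatives, over which the adjusted p reached 0.236. CHEK2, the kinase that ATM activates and a gene with pseudogene copies, had 18.5, 23.7 and 20.3 FPKM with trametinib and 32.1, 37.3 and 34.5 with DMSO in YAPKO2, with no overlap (-0.72 ± 0.12, adjusted p = 0.00035). ATM had 16.4, 18.6 and 31.5 FPKM with trametinib and 20.7, 16.6 and 21 with DMSO there (0.13 ± 0.27, adjusted p = 0.79) and ATR 5.57, 3.67 and 10.04 FPKM with trametinib and 8.63, 5.06 and 8.04 with DMSO (-0.23 ± 0.29, adjusted p = 0.64). For both, the third trametinib library was above all DMSO libraries of the line. TOPBP1, the activator of ATR, had 22.3, 9.13 and 39 FPKM with trametinib and 39.6, 23.4 and 28.6 with DMSO, with the same spread (-0.56 ± 0.38, adjusted p = 0.332).

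Of the mismatch repair pair, MSH6, which recognises mispaired bases, was the most abundant of the 33 genes per length, with a median of 167 FPKM over the libraries. It had 74.5, 70.1 and 107 FPKM in YAPKO2 with trametinib and 171, 166 and 166 with DMSO (-1.02 ± 0.13, adjusted p = 3.47e-05). In YAPKO1 the values were 149, 154 and 119 FPKM with trametinib and 196, 185 and 152 with DMSO (-0.34 ± 0.13, adjusted p = 0.14) and in sgCON 165, 167 and 174 FPKM with trametinib and 193, 201 and 200.02 with DMSO (-0.23 ± 0.13, adjusted p = 0.398). The trametinib libraries lay below the DMSO libraries in YAPKO2 and sgCON and overlapped with them in YAPKO1. PMS2, an endonuclease subunit and a gene with many near-identical copies, had 26.2, 25.8 and 25.4 FPKM with trametinib and 23.2, 24.8 and 23.7 with DMSO in YAPKO2 and did not pass (0.11 ± 0.07, adjusted p = 0.322).

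Among all 33 genes, 12 had YAPKO2 trametinib values wholly below and 1 wholly above the DMSO values, where 15.3% and 13.4% of all genes tested did. In YAPKO1 these counts were 4 and 0 (10.2% and 11.1% of all genes), and in sgCON 5 and 5 (19.8% and 16.7%). The third YAPKO2 trametinib library had a GC trend below that of every YAPKO2 DMSO library. In it NBN, RAD50, ATM and ATR lay above every YAPKO2 DMSO library. EXO1, CHEK1, FANCI, MSH6, UBE2T and FANCD2 lay below every one, which follows from their place among the 12 genes wholly below. These genes were named after their values were seen, and the part of the GC trend was not tested. The median change of the 33 genes in YAPKO2 was -0.19 without trametinib library 2, -0.71 without trametinib library 3 and -0.28 without DMSO library 1. Across the 6 single omissions 8 to 16 genes were called. The share of all genes called in these fits is not given here, so the counts cannot set these genes apart from all genes tested.

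**Figure D4:**
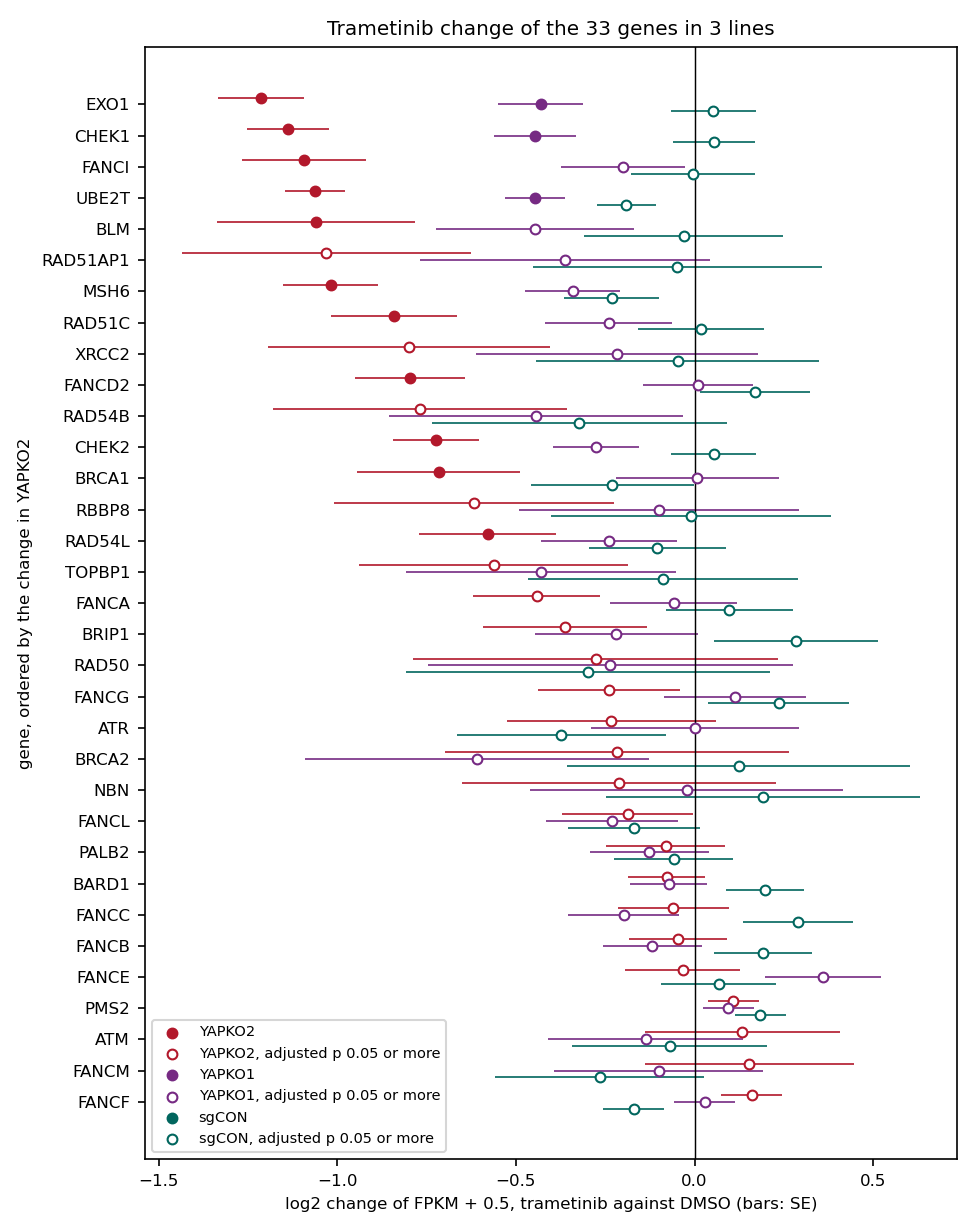
Log2 change with trametinib against DMSO (x axis, of FPKM + 0.5; bars are SE) of the 33 genes (y axis, ordered by the change in YAPKO2), with YAPKO2, YAPKO1 and sgCON drawn from top to bottom within each gene. Filled points passed an adjusted p of 0.05 (limma); 11 are filled for YAPKO2, 3 for YAPKO1 and 0 for sgCON.

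The difference between the responses was tested itself. The trametinib response of YAPKO2 minus that of sgCON was negative and called for 7 of the 33 genes and positive for 0 (3.01% and 1.8% of all genes tested), with a median difference of -0.47. The largest were in EXO1 (-1.27 ± 0.17, adjusted p = 0.000247), CHEK1 (-1.19 ± 0.16, adjusted p = 0.000295), and FANCI (-1.09 ± 0.25, adjusted p = 0.015). The others were FANCD2 (-0.97 ± 0.22, adjusted p = 0.0152), UBE2T (-0.87 ± 0.12, adjusted p = 0.000288), MSH6 (-0.79 ± 0.19, adjusted p = 0.0217) and CHEK2 (-0.78 ± 0.17, adjusted p = 0.0123). MSH6 lost this call without sgCON DMSO library 1, sgCON trametinib library 3 or YAPKO2 trametinib library 1 (adjusted p = 0.0535, 0.054 and 0.0576). It held in 22 of 27 alternatives (adjusted p of up to 0.0995), and the CHEK2 call in 26 of 27 (up to 0.057). The response differences of BRCA1 (-0.49 ± 0.32, adjusted p = 0.507) and BRCA2 (-0.34 ± 0.68, adjusted p = 0.883) did not pass. After the GC correction 11 were lower and 0 higher (6.5% and 3.73% of all genes), with RAD51C, RAD51AP1, BRIP1 and BLM added.

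Between YAPKO1 and sgCON, 0 of 33 response differences passed with limma (0.0495% of all genes were lower and 0.198% higher). Of the 33, 4 had an unadjusted p under 0.05, and the share of all genes tested at that unadjusted level was not counted. EXO1 (-0.48 ± 0.17, adjusted p = 0.401) and CHEK1 (-0.50 ± 0.16, adjusted p = 0.34) were below 0 by more than their SE, and with the GC correction EXO1 passed (-0.48 ± 0.10, adjusted p = 0.0274), where 0.415% of all genes were lower and 0.52% higher. The response of YAPKO2 minus that of YAPKO1 passed for 2 genes as lower and 0 as higher (0.588% and 0.217% of all genes). They were EXO1 (-0.78 ± 0.17, adjusted p = 0.0354) and UBE2T (-0.62 ± 0.12, adjusted p = 0.0198). After the GC correction 5 were lower and 0 higher (1.65% and 0.594%). The response comparisons share libraries with each other. The EXO1 and UBE2T calls between the knockout lines did not hold in several settings: over the alternatives the adjusted p of EXO1 ran from 0.000362 to 0.337 and that of UBE2T from 0.00142 to 0.239.

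Without trametinib, the knockout lines had less BRCA1 and more FANCC, CHEK2 and PMS2 than sgCON. YAPKO2 against sgCON in DMSO gave 6 lower and 4 higher of 33 (13% and 14% of all genes tested), with a median log2 change of -0.43. YAPKO1 against sgCON in DMSO gave 1 lower and 3 higher (5.8% and 6.16%), with a median of -0.24. In both lines and both directions these called counts stand near the shares over all genes, and both comparisons share the sgCON libraries. Values wholly below those of sgCON were found for 20 genes in YAPKO2 and 7 in YAPKO1 (26.2% and 16.9% of all genes), and wholly above for 4 and 3 (26.3% and 16.9%).

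BRCA1 had 15.4, 11.1 and 13.8 FPKM in YAPKO2 and 18.6, 14.5 and 10.6 in YAPKO1, against 29.4, 29 and 23.1 FPKM in sgCON. All 6 knockout libraries were below all sgCON libraries, with log2 changes of -0.99 ± 0.23 in YAPKO2 (adjusted p = 0.00416) and -0.90 ± 0.23 in YAPKO1 (adjusted p = 0.0149). The YAPKO1 call did not hold without its library 3 (-0.70, adjusted p = 0.0849) or without the first or second sgCON library (adjusted p = 0.0596 and 0.0588). BRCA2 had 3.17, 0.615 and 0.867 FPKM in YAPKO2 and 5.71, 4.19 and 1.1 in YAPKO1, against 5.85, 6.06 and 5.05 in sgCON. It passed in YAPKO2 (-1.79 ± 0.48, adjusted p = 0.0113) but not without the second YAPKO2 library (-1.46, adjusted p = 0.0691), and it did not pass in YAPKO1 (-0.77 ± 0.48, adjusted p = 0.316), where 1 library overlapped with sgCON and another was at 1.1 FPKM. At levels this low the pseudocount of 0.5 understates the fold.

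The other genes lower in YAPKO2 with DMSO were FANCM, EXO1, RAD51C and PALB2. EXO1 had 35.4, 36.9 and 38.7 FPKM in YAPKO2 against 60.6, 62.4 and 57.7 in sgCON, with no overlap (-0.70 ± 0.12, adjusted p = 0.000383). RAD51C had 64.2, 57.1 and 61.9 FPKM in YAPKO2 against 89, 90.6 and 94.6 in sgCON (-0.58 ± 0.18, adjusted p = 0.0228) and PALB2 6.69, 5.87 and 5.5 FPKM in YAPKO2 against 10.1, 8.39 and 9.08 in sgCON (-0.57 ± 0.17, adjusted p = 0.0181). FANCM had 2.28, 1.06 and 1.09 FPKM in YAPKO2 against 3.34, 2.87 and 2.65 in sgCON (-0.85 ± 0.29, adjusted p = 0.0389), and its call was lost with the GC correction (-0.30 ± 0.22, adjusted p = 0.321). The calls of RAD51C, PALB2 and FANCM were each lost when 1 of several libraries was left out (adjusted p of up to 0.086, 0.0718 and 0.157). YAPKO2 library 2 or 3 and sgCON library 1 did so for all 3 genes, and sgCON library 2 or 3 for RAD51C and FANCM. Without the second YAPKO2 DMSO library, 4 of the 33 genes passed in place of 10. The share of all genes called in that fit is not given here.

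FANCC, a core subunit, had 18.3, 23.7 and 17.1 FPKM in YAPKO2 and 18, 23.2 and 23.9 in YAPKO1, against 12.7, 13.4 and 12.8 in sgCON, where every knockout library was above every sgCON library (0.57 ± 0.15 and 0.71 ± 0.15, adjusted p = 0.0117 and 0.00558). PMS2 had 23.2, 24.8 and 23.7 FPKM in YAPKO2 and 24.8, 24.5 and 25.1 in YAPKO1, against 18.5, 18.5 and 18.5 in sgCON (0.36 ± 0.07 and 0.41 ± 0.07, adjusted p = 0.00137 and 0.000853). CHEK2 had 32.1, 37.3 and 34.5 FPKM in YAPKO2 and 33.4, 36.2 and 39.2 in YAPKO1, against 22.5, 29.7 and 26.7 in sgCON (0.39 ± 0.12 and 0.46 ± 0.12, adjusted p = 0.0227 and 0.018). The knockout libraries were above all sgCON libraries for these 3 genes. Parental cells had 17, 19.6 and 15.8 FPKM of FANCC and 22, 23.4 and 22 FPKM of PMS2, above all sgCON libraries with DMSO and overlapping with YAPKO2 with DMSO for both genes, and 22.4, 21.5 and 20.5 FPKM of CHEK2, below all sgCON libraries. The FANCC call in YAPKO2 was lost without YAPKO2 library 2 (0.44, adjusted p = 0.079). The CHEK2 call in YAPKO2 was lost without sgCON library 1 or YAPKO2 library 2 or 3 (adjusted p = 0.119, 0.102 and 0.0552). In YAPKO1 it was lost without sgCON library 1 or YAPKO1 library 3 (adjusted p = 0.103 and 0.0768). UBE2T was higher in YAPKO2 (123, 126 and 130.5 FPKM against 100.2, 109.8 and 92.7 in sgCON; 0.33 ± 0.08, adjusted p = 0.00805) and, as given above, fell with trametinib in that line. CHEK1, FANCD2, FANCA, ATM and ATR did not pass in either line with DMSO, with log2 changes in YAPKO2 of 0.04 ± 0.11, 0.05 ± 0.15, 0.02 ± 0.18, -0.19 ± 0.27 and -0.56 ± 0.29.

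The GC correction moved the YAPKO2 median in DMSO to -0.13 and gave 6 lower and 6 higher of 33 (13.8% and 17.7% of all genes). Over the 33 genes the Spearman correlation of this change with transcript GC content was 0.53 before and 0.10 after the correction; this describes 33 genes measured in the same libraries. With the correction the YAPKO1 median was 0.00, with 3 lower and 4 higher (8.98% and 10.1%). BRCA1 remained lower (-0.69 ± 0.14 in YAPKO2 and -0.71 ± 0.14 in YAPKO1) and FANCC, CHEK2 and PMS2 remained higher in both lines. CHEK1 (0.37 ± 0.11, adjusted p = 0.0144) and FANCB (0.75 ± 0.26, adjusted p = 0.0375) passed as higher in YAPKO2 with the correction.

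**Figure D5:**
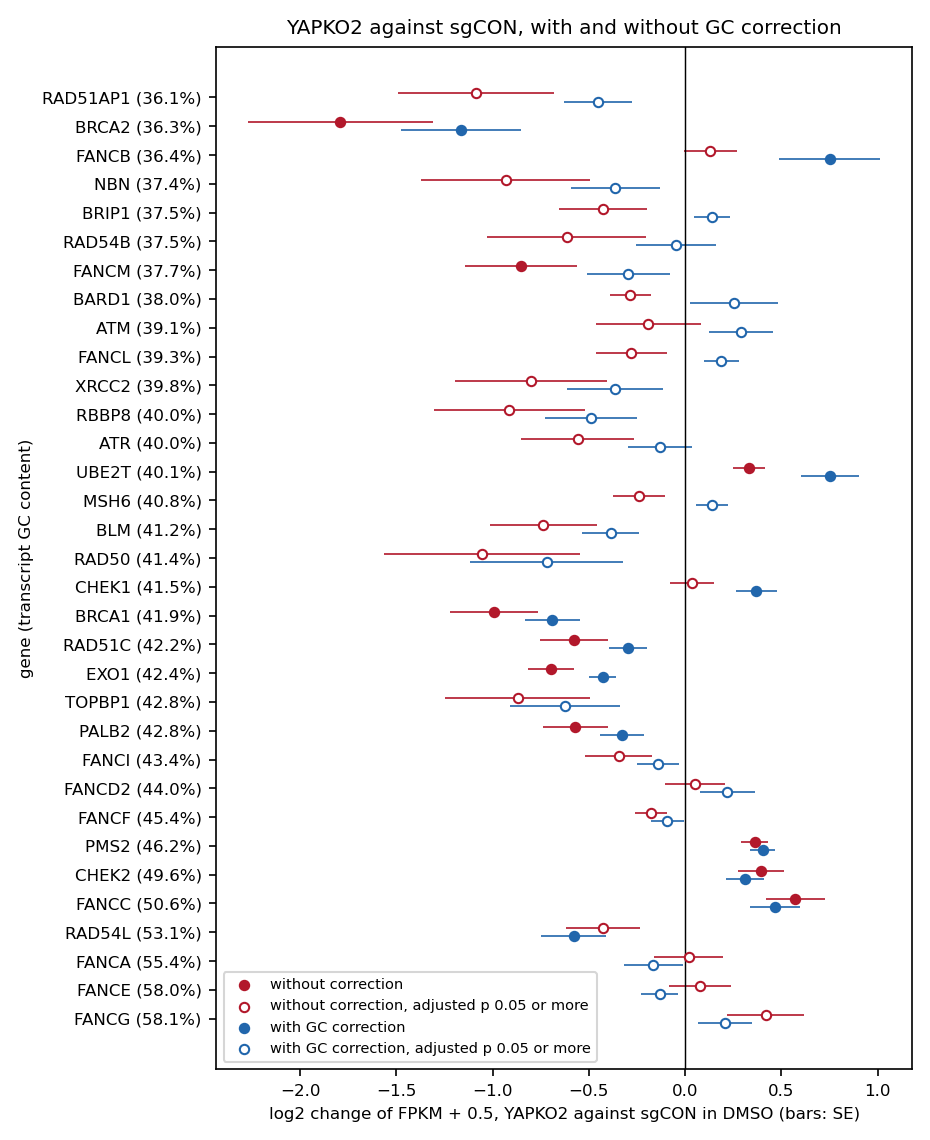
Log2 change of the 33 genes in YAPKO2 against sgCON, both in DMSO (x axis; bars are SE), without and with the GC correction; genes run from GC-poor at the top to GC-rich at the bottom (transcript GC content in parentheses). The correction moves most GC-poor genes upward, taking the median change to -0.13 from the uncorrected -0.43, while BRCA1, BRCA2 and EXO1 remain below 0 and FANCC, CHEK2 and PMS2 above it.

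With trametinib, most of the 33 genes were lower in YAPKO2 than in sgCON. This comparison gave 21 lower and 1 higher of 33 (18.6% and 17.6% of all genes tested), with a median log2 change of -0.92, and 22 genes lay wholly below and 1 wholly above sgCON (20.4% and 20.3% of all genes). By role, the lower genes were 3 of 4 in break sensing and resection, 5 of 5 in the BRCA1-BRCA2 group and 5 of 6 in the strand exchange group. They also included 2 of 9 core and E2 genes (FANCA and UBE2T), 2 of 2 in the FANCD2-FANCI pair, 3 of 5 checkpoint genes and 1 of 2 mismatch repair genes. The GC correction left 20 lower and 3 higher (19% and 20.2% of all genes) and a median of -0.60.

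The 8 largest of these falls began with BRCA2 (-2.13 ± 0.48, adjusted p = 0.00233), RAD51AP1 (-2.07 ± 0.41, adjusted p = 0.000779), and EXO1 (-1.96 ± 0.12, adjusted p = 1.62e-09). Next came BLM (-1.77 ± 0.28, adjusted p = 0.000105), XRCC2 (-1.55 ± 0.40, adjusted p = 0.00552) and RBBP8 (-1.52 ± 0.39, adjusted p = 0.00608), then BRCA1 (-1.48 ± 0.23, adjusted p = 8.96e-05) and RAD51C (-1.44 ± 0.18, adjusted p = 8.43e-06). BRCA2 had 0.738, 0.564 and 2.2 FPKM in YAPKO2 with trametinib, against 5.21, 6.65 and 6.83 in sgCON with trametinib. RAD51AP1 had 9.72, 4.12 and 18.8 FPKM in YAPKO2 against 35.3, 40.7 and 45.1 in sgCON, and BLM 5.99, 3.55 and 11.4 FPKM in YAPKO2 against 22.3, 23.2 and 22.2 in sgCON. All 3 genes were lower in every YAPKO2 library than in every sgCON library, with the third YAPKO2 library the closest to sgCON. XRCC2 had 5.2, 1.41 and 7.58 FPKM in YAPKO2 against 12.5, 12.9 and 12.3 in sgCON and RBBP8 7.94, 4.24 and 16.4 FPKM in YAPKO2 against 22.4, 27.6 and 24.4 in sgCON, also without overlap. CHEK1 (-1.16 ± 0.11, adjusted p = 7.55e-07), FANCD2 (-0.92 ± 0.15, adjusted p = 0.000207) and FANCA (-0.52 ± 0.18, adjusted p = 0.0297) were among the others that fell, while ATM (0.01 ± 0.27, adjusted p = 0.984) and ATR (-0.42 ± 0.29, adjusted p = 0.279) did not pass. FANCA lost its call without sgCON library 2 or 3 or YAPKO2 library 3 (adjusted p = 0.0852, 0.0807 and 0.104). With the GC correction the UBE2T and BARD1 calls were lost (adjusted p = 0.716 and 0.997) and ATM passed as higher (0.53 ± 0.16, adjusted p = 0.0168).

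YAPKO1 against sgCON in trametinib gave 6 lower and 1 higher of 33 (7.15% and 7.79% of all genes), with a median of -0.31. Values lay wholly below sgCON for 17 genes and wholly above for 3 (20.9% and 20.2% of all genes), and the GC correction gave 8 lower and 1 higher (10.8% and 11.1%). Those of largest size were BRCA2 (-1.50 ± 0.48, adjusted p = 0.0438), EXO1 (-0.78 ± 0.12, adjusted p = 0.000216) and RAD51C (-0.75 ± 0.18, adjusted p = 0.00829). The other 3 were BRIP1 (-0.75 ± 0.23, adjusted p = 0.0347), FANCI (-0.56 ± 0.17, adjusted p = 0.0389) and CHEK1 (-0.42 ± 0.11, adjusted p = 0.02). EXO1 had 36.7, 41.3 and 30.9 FPKM in YAPKO1 against 59, 67.3 and 61.4 in sgCON. BRCA2 had 1.69, 3.25 and 1.11 FPKM in YAPKO1 against 5.21, 6.65 and 6.83 in sgCON, and RAD51C 49.7, 67 and 49.6 FPKM in YAPKO1 against 86.9, 96.3 and 94.7 in sgCON. None of these 3 genes overlapped between the lines. PMS2 was the gene that passed as higher in both lines with trametinib, at 26.2, 25.8 and 25.4 FPKM in YAPKO2 and 25, 26 and 28.8 in YAPKO1, against 20.9, 21.4 and 21 in sgCON (0.28 ± 0.07 and 0.33 ± 0.07, adjusted p = 0.00511 and 0.00523). The YAPKO1 calls of BRCA2, BRIP1 and FANCI did not hold without any 1 of the sgCON libraries or without YAPKO1 library 1 or 3 (adjusted p of up to 0.179, 0.123 and 0.187). CHEK1 was lost with the GC correction (adjusted p = 0.198). Its YAPKO1 call held in 14 of 20 alternatives, over which the adjusted p reached 0.231.

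Between the control line and its parent, 3 of the 33 genes were lower and 1 higher in sgCON with DMSO (7.86% and 7.96% of all genes tested), with a median log2 change of -0.15. FANCD2 had 14.1, 19.7 and 17.8 FPKM in sgCON, against 37.1, 32.1 and 27.7 in parental cells (-0.89 ± 0.15, adjusted p = 0.000679). The knockout lines with DMSO also stood at the lower level (20.5, 16.1 and 16.6 FPKM in YAPKO2 and 15.7, 16.8 and 14.7 in YAPKO1). BARD1 had 26.1, 27.6 and 27.5 FPKM in sgCON against 35.8, 34.9 and 41.4 in parental cells (-0.45 ± 0.11, adjusted p = 0.00789). PMS2 had 18.5, 18.5 and 18.5 FPKM in sgCON against 22, 23.4 and 22 in parental cells (-0.27 ± 0.07, adjusted p = 0.0146), and FANCF 19, 22.1 and 21.4 FPKM in sgCON against 14.3, 15.5 and 14.4 in parental cells (0.49 ± 0.09, adjusted p = 0.000764). None of these 4 overlapped between sgCON and parental cells. Of all 33 genes, 13 lay wholly below and 5 wholly above parental cells (21.8% and 23.6% of all genes), and the GC correction gave 5 lower and 4 higher (11.5% and 13.1%). The sample labels give the parental cells DMSO, and the series text names it for the other lines alone, so Cas9, the guide and any difference in DMSO or culture time cannot be told apart here. The summed blood and endothelial markers, led by CD68, also differed between sgCON and parental cells, as given above, and their part in these results was not tested. PMS2 lost its call without parental library 2 (adjusted p = 0.0667). BARD1 lost its call with the GC correction (adjusted p = 0.209) and without the third parental library (-0.38, adjusted p = 0.051). The BARD1 call held in 17 of 20 alternatives, over which the adjusted p reached 0.239.

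Without the GC correction, 8 of the 33 genes passed in none of the 11 comparisons. They were ATM, ATR, FANCB, FANCE, FANCG, FANCL, RAD50 and RAD54B. With the correction ATM, FANCB and RAD54B were among those that passed in a comparison, as given above. The uncorrected spread of the 8 genes differed. FANCB stayed between 5.43 and 8.51 FPKM over the 21 libraries, whereas RAD50 ranged from 1.46 to 10.9 FPKM and RAD54B from 1.43 to 13.5 FPKM, with SEs of 0.51 and 0.41 on their trametinib change in YAPKO2 against 0.14 for FANCB. At the other end EXO1 passed in 7 comparisons and UBE2T in 6, again without the correction. The comparisons share libraries, and how many of all genes tested passed in none, or in as many, was not counted. These counts therefore do not set the 33 genes apart from other genes.

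Genes of the same pathways outside the 33 were counted by list, where 11.5% of all genes tested fell and 8.56% rose with trametinib in YAPKO2. In that comparison 9 of 23 other homologous recombination genes fell and 1 rose, with falls in PARPBP (-1.07 ± 0.22), FIGNL1 (-0.97 ± 0.32) and MCM8 (-0.90 ± 0.26). Of 18 other checkpoint genes, 12 fell and 1 rose, led by CLSPN (-1.25 ± 0.28), the adaptor of CHEK1 activation, the phosphatase gene CDC25A (-1.06 ± 0.13), the histone gene H2AFX (-0.94 ± 0.17) and the kinase gene WEE1 (-0.87 ± 0.10). Of 12 other Fanconi genes 2 fell (CENPS and CENPX, -0.66 ± 0.19 and -0.50 ± 0.16). Of 7 end-joining genes 2 fell (PRKDC and XRCC5, -0.49 ± 0.11 and -0.34 ± 0.09).

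Genes of DNA replication and proliferation were counted in the same comparisons, with the shares over all genes given above. Of 26 such genes, 24 fell and 0 rose with trametinib in YAPKO2 (median log2 change -0.91), 5 fell in YAPKO1 (median -0.31), and in sgCON 1 rose and 0 fell (median 0.05). The response of YAPKO2 minus that of sgCON was lower for 21 of the 26 (median -0.996), and 24 of them were lower in YAPKO2 than in sgCON with trametinib. In DMSO, YAPKO2 against sgCON gave 3 lower and 4 higher of the 26 (median 0.06), and with the GC correction 3 lower and 7 higher (median -0.08). The 33 repair and checkpoint genes had a median of -0.43 without and -0.13 with the correction. MKI67, the proliferation marker, had 3.77, 2.65 and 4.29 FPKM in YAPKO2 with trametinib and 6.96, 6.17 and 5.4 with DMSO, and 8.63, 8.89 and 9.01 FPKM with trametinib and 10.1, 8.64 and 10.1 with DMSO in sgCON. The part that a change in cycling cells has in the repair gene results was not tested.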

How the data were processed

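The authors deposited FPKM values in a table of 57820 genes by 21 samples, of which the calibrated version was used. Per the submitters' processing notes, the tools include STAR 2.4.2 and RSEM 1.3.0 and the genome is hg19; whether strand was used in quantification is not given in the sources used here. FPKM carry no counts, so the depth is unknown and no counting interval is given. Libraries were scaled by median ratios to a geometric mean profile (factors 0.916 to 1.09). The filter asked for 1 FPKM or more in 3 or more libraries and left 16153 genes. A linear model with 7 group means over 21 libraries and a variance trend was fitted to log2(FPKM + 0.5) (limma 3.58.1, R 4.3.3). The pseudocount understates folds of low genes. Tests were two-sided, with p-values adjusted by Benjamini-Hochberg over all genes tested and a threshold of 0.05. The GC correction subtracts a spline (5 degrees of freedom) on transcript GC content per library; GENCODE v29 gave a GC content for 96.4% of the genes tested and was also used to match the guides. Promoter windows are from RefSeq. The fit and the correction were tested on simulated data.

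The 33 genes, the role groups and the gene lists were chosen with earlier results of these data known. Values, for some genes in a part of the groups only, are given for BRCA1, BRCA2, FANCD2, FANCA, CHEK1, ATM and ATR. The same holds for up to 8 called genes per direction with the largest change in each comparison. It also holds for every gene called in a response difference. Up to 4 genes are named per further list, and MKI67 was added after its values were seen. Alternatives were other pseudocounts, filters, scalings and fits, a replicate block, and leaving out libraries. Some genes are not reported here.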

Additional observations from a re-analysis of the deposited data

Results flagged for a closer look

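The trametinib response differed between lines for 7 of the 33 genes, each by a test of the difference itself (limma, adjusted over all genes tested), where the YAPKO2 response was lower than that of sgCON for 3.01% of all genes and higher for 1.8%. The response of YAPKO2 minus that of sgCON was -1.27 ± 0.17 (log2 ± SE) for EXO1 (adjusted p = 0.000247), -1.19 ± 0.16 for CHEK1 (adjusted p = 0.000295) and -0.87 ± 0.12 for UBE2T (adjusted p = 0.000288). It was -1.09 ± 0.25 for FANCI (adjusted p = 0.0150), -0.97 ± 0.22 for FANCD2 (adjusted p = 0.0152), -0.78 ± 0.17 for CHEK2 (adjusted p = 0.0123) and -0.79 ± 0.19 for MSH6 (adjusted p = 0.0217). The MSH6 difference was called in 22 of 27 alternatives and the CHEK2 difference in 26 of 27. For EXO1 and UBE2T the response of YAPKO2 also differed from that of YAPKO1, by -0.78 ± 0.17 (adjusted p = 0.0354) and -0.62 ± 0.12 (adjusted p = 0.0198), where 0.588% of all genes were lower and 0.217% higher. These calls between the knockout lines held in 12 of 27 alternatives for EXO1 and 17 of 27 for UBE2T. All 3 trametinib libraries of YAPKO2 lay below its 3 DMSO libraries for each of these 7 genes.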

How the results depend on the processing

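Of 58 changes of single genes tested under alternatives, 29 were called under every one and 0 reversed; 789 of 859 repeats under other settings and 326 of 402 with a library left out kept their call. Leaving out 1 library gave 0 called genes in sgCON with trametinib, 1 to 4 in YAPKO1 and 8 to 16 in YAPKO2; 0, 6 to 9 and 0 to 5 for the response differences of YAPKO1 from sgCON, YAPKO2 from sgCON and YAPKO2 from YAPKO1; 2 to 5 and 4 to 12 for YAPKO1 and YAPKO2 against sgCON in DMSO, 3 to 9 and 19 to 26 in trametinib; and 3 to 4 for sgCON against parental cells.

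In that order of comparisons, fitting only the groups compared gave 3, 0, 7 (trametinib), 0 (YAPKO2 from YAPKO1), 2 and 20 (DMSO), 12 and 14 (trametinib) and 12 (parental) called genes. Sample weights gave 2, 16 and 23, then 5, 13 and 11, then 11 and 24, then 17 for YAPKO1 in trametinib, and 10 for parental cells. The GC correction gave 2 and 1 for sgCON and YAPKO1 with trametinib, 1, 11 and 5 for the differences, 7 for YAPKO1 in DMSO and 9 for parental cells. Requiring also a 2-fold change gave 0 and 6 for YAPKO1 and YAPKO2 with trametinib, 3 and 0 for the differences of YAPKO2 from sgCON and from YAPKO1, 0, 1, 1 and 14 for the knockouts against sgCON, and 0 for parental cells. For YAPKO1 with trametinib, the deposited calibrated and uncalibrated scales and quantile normalization each gave 1, and leaving out 3 libraries with high GC trends gave 12; for YAPKO2 from YAPKO1 these gave 0, 1, 1 and 0, and a fit without a variance trend gave 1. Leaving out the 3 libraries gave 1 for YAPKO1 from sgCON. The 3 left out were YAPKO1 DMSO library 3, YAPKO2 DMSO library 2 and YAPKO2 trametinib library 2 (GC trends 0.678, 0.622 and 1.34). YAPKO2 trametinib library 1 was kept, although its trend was 0.702. YAPKO1 against sgCON in trametinib gave 4 with no filter and 3 on the calibrated scale. The cause of these shifts was not tested. For the GC correction, directions and shares over all genes are given above. For the other settings, the direction of the calls and the share of all genes called are not given here. Their counts therefore cannot show whether a setting changed the calls of these genes more than those of all genes tested. The same limit holds for the counts with a library left out and for those of the replicate block below.

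Same-numbered libraries did not deviate together throughout. Over the 8 comparisons of groups, the correlation of their deviations ran from -0.12 to 0.36 and exceeded 0.1 for all 3 pairs in no comparison. With trametinib against DMSO it exceeded 0.1 for 2 pairs in YAPKO1 (0.167 and 0.226) and 1 in YAPKO2 (0.358). These correlations cannot tell whether same-numbered libraries shared a day or culture, because the libraries also differed in GC trend. The replicate block gave 2 and 9 called genes for YAPKO1 and YAPKO2 with trametinib, 7 and 1 for the differences of YAPKO2 from sgCON and from YAPKO1, and 4 for YAPKO1 against sgCON in trametinib; with the GC correction the block gave 2, 1, 1 and 11 for the first 2 trametinib comparisons and the first 2 differences, and 9 for parental cells.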
